A study of Homo sapiens with 6 samples.

Results

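The comparison described here set A375 cells kept for 16 h in the solvent DMSO against A375 cells kept for 6 h in DMSO. A375 is an established line of human melanoma cells that carries mutant BRAF. Both samples were chosen by their labels, DMSO and the time, and they are 2 of the 6 arrays in the series. Expression was measured on Affymetrix arrays, 1 array per condition. The remaining arrays held cells given 10 µM vemurafenib for 16 h, 10 µM vemurafenib for 6 h, 100 nM AT9283 for 6 h, and both drugs at these doses for 6 h. Vemurafenib inhibits mutant BRAF and AT9283 inhibits several kinases, the Aurora kinases and JAK2 among them. All cells were of the same line and were grown in RPMI1640 with fetal bovine serum and kanamycin. The sample sources name DMSO, while the treatment field of both DMSO samples reads none. The labels do not say whether the 16 h and 6 h dishes were separate cultures plated together, and they give no cell number, confluence, medium change or oxygen level. Time in culture, cell density, use of the medium and time of day therefore cannot be told apart in these data.

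Cells left in a dish go on dividing, take up glucose and amino acids and consume oxygen. When oxygen is low, the HIF transcription factors escape hydroxylation by the EGLN enzymes and switch on genes of glycolysis, mitophagy and collagen hydroxylation, together with EGLN genes that feed back on them. The circadian clock of cultured cells runs on CLOCK and BMAL1, which activate their own repressors of the PER, CRY, BHLHE and NR1D families through the E-box, and fresh serum can set its phase. Growing cells also spend much of their transcription on ribosome assembly and, before S phase, on E2F targets, and dense cells restrain YAP through the Hippo kinases.

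The values are probe set intensities taken to log2, with 1 probe set per gene. The median intensity was 20.7 on the DMSO 16 h array and 19.9 on the DMSO 6 h array, and ranged from 19.8 to 21.3 over all 6 arrays. Of 19676 genes, 9055 had a log2 intensity of at least 6 (an intensity of 64) on the brighter DMSO array, and the counts below are over these genes, called genes at the floor. The melanocyte lineage regulators SOX10 and MITF were bright on both arrays, at 8.71 and 8.63 at 16 h against 9.14 and 9.05 at 6 h. Of 14 pigment cell markers measured 6 reached the floor, and TYR, TYRP1, PMEL, MLANA and S100B did not. Of 17 markers of other lineages, KRT18, KRT8, COL1A1 and ACTA2 reached it. In 2.04% of probe sets the 6 h values stood on the wrong rows, and these probe sets were left out.

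The DMSO arrays differed little in size. Across the 9055 genes the 16 h minus 6 h difference had a median of -0.04 and an SD of 0.24 on the log2 scale. For scale, AT9283 minus DMSO at 6 h had an SD of 0.125 and vemurafenib at 16 h minus 6 h one of 0.514. With 1 array on each side there is no replicate check, and "rose" and "fell" are used here for a difference of at least 1 on log2 (2-fold) with the brighter array at the floor, which is a cut on size without a test. By this rule 17 genes rose at 16 h (0.188% of genes) and 8 fell (0.0883%), 25 in all (0.276%). At 1.5-fold, 139 genes were higher (1.54%) and 102 lower (1.13%). Just short of the rule, 12 genes were higher by 0.9 to 1 and 5 lower by as much. With every array centred on its median over all genes, the split was 14 that rose and 12 that fell.

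The genes that rose were led by CCDC102B, a protein of the centrosome linker, at 6.96 at 16 h against 5.00 at 6 h (+1.96). CCNG2, an unusual cyclin that rises in cells leaving the cycle, stood at 7.15 at 16 h against 5.41 at 6 h (+1.74), and its other probe sets at the floor gave +2.34 and +1.62. NRN1, the neuronal surface protein neuritin, was at 6.59 against 4.92 (+1.66), and the membrane protein TMEM45A at 6.68 against 5.10 (+1.58). Next came the clock repressors BHLHE40 (+1.56) and BHLHE41 (+1.49), the cAMP phosphodiesterase PDE4B (+1.53), and SH2D1B, an adaptor of immune cell receptors (+1.49). The remaining risers were the hypoxia target ANKRD37 (+1.24), the alpha-arrestin ARRDC3 (+1.22), the pyruvate dehydrogenase kinase PDK4 (+1.21), the Rac GTPase-activating protein ARHGAP24 (+1.14), the centriole protein CNTRL (+1.14), the receptor tyrosine kinase inhibitor SPRY1 (+1.13), the histone demethylase KDM3A (+1.06), the cilium protein EFCAB7 (+1.02) and the cadherin CDH11 (+1.01). Of the 17, 12 were below the floor at 6 h. CDH11 rests on a probe set that can share probes with other transcripts, and its probe sets without that mark, both far below the floor, gave +1.08 and -0.02.

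Among the 8 genes that fell, ND6, the complex I subunit encoded on the light strand of mitochondrial DNA, moved most, at 7.81 at 16 h against 9.69 at 6 h (-1.87). E2F1, the activator of S phase genes, followed at 5.85 against 7.30 (-1.45). PRR16, also named Largen for its effect on cell size, stood at 6.49 against 7.83 (-1.34). Its other probe set at the floor gave -0.86, short of the rule. ANKRD1, a target of YAP, was at 7.21 at 16 h against 8.34 at 6 h (-1.14), and the metabolic coactivator PPARGC1B at 5.60 against 6.73 (-1.13). ERICH1 (-1.04), the ubiquitin-conjugating enzyme UBE2QL1 (-1.02) and the SWI/SNF subunit SMARCD1 (-1.01) completed the set, and the other ERICH1 probe sets at the floor gave smaller differences of -0.60 and -0.24. At 16 h, 4 of the 8 were below the floor.

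**Figure D1:**
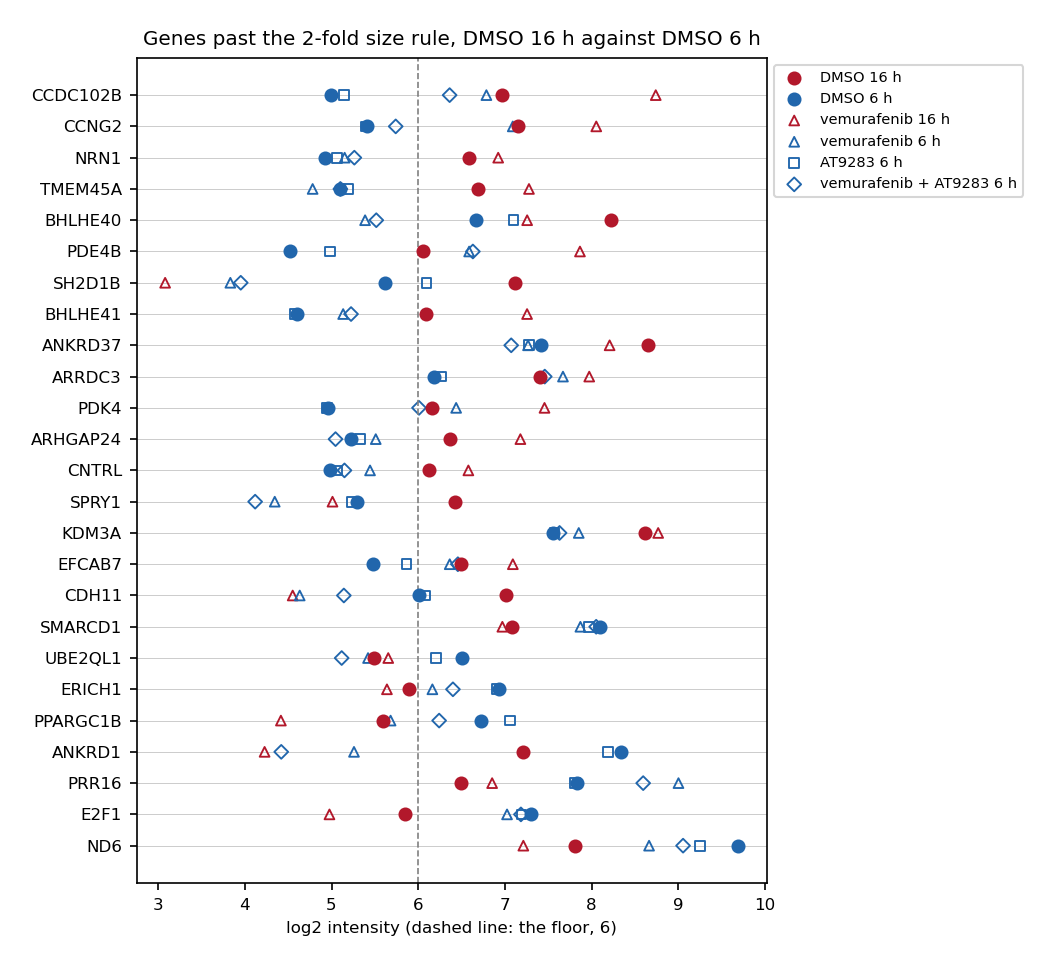
Log2 intensity (x axis) of the 25 genes past the 2-fold rule of size, 1 point per array, ordered by the DMSO 16 h minus DMSO 6 h difference; filled circles are the DMSO arrays and open marks the drug arrays, red for 16 h and blue for 6 h. CCDC102B stands at 6.96 in DMSO at 16 h against 5.00 in DMSO at 6 h, and ND6 at the bottom at 7.81 against 9.69.

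The other arrays show how these genes lay in cells under drugs. For many of them the arrays with vemurafenib stood at another level than DMSO at the same time, a difference that was not tested. For each gene, the lower of both 16 h arrays was set against the highest of all 4 arrays at 6 h, and the higher of both against the lowest. Over all genes at the floor, 839 (9.27%) stood above every 6 h array and 2133 (23.6%) below, so lower values at 16 h were the more common of the patterns. Of the 17 genes that rose, 11 had both 16 h arrays above every 6 h array, and of the 8 that fell, 6 had both below. NRN1 was at 6.59 and 6.92 at 16 h, with the 6 h arrays between 4.92 and 5.26. TMEM45A was at 6.68 and 7.28, against 4.78 to 5.19 at 6 h. E2F1 was at 5.85 and 4.98 at 16 h, against 7.02 to 7.30 on the 6 h arrays. For these 3 genes the DMSO and vemurafenib arrays at 16 h did not overlap the 4 arrays at 6 h, while AT9283 had no 16 h array. The genes that rose or fell were chosen on the DMSO pair, which is part of these ranges. Their counts are therefore partly set by that choice.

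Hypoxia target genes were higher at 16 h than at 6 h as a group. Of 30 listed, 27 were measured and 20 were at the floor. Of the 20, 18 were higher at 16 h, where 42.8% of all genes at the floor were, and their median difference was +0.49 against -0.04 for all genes. BHLHE40, ANKRD37 and KDM3A rose, 9 members were higher by at least 1.5-fold, as were 1.54% of all genes, and none was lower by as much on the probe set used. Both 16 h arrays stood above all 4 arrays at 6 h for 14 of the 20, against 9.27% of all genes. They stood below them for 0, against 23.6%. The list was made of genes known as HIF targets, but, like the other lists, with earlier results of these data known. Its shares are therefore a description and not independent support. No oxygen value is given with these samples.

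ANKRD37, an ankyrin repeat protein, was at 8.65 and 8.21 in DMSO and vemurafenib at 16 h, against 7.41 in DMSO, 7.27 in vemurafenib, 7.28 in AT9283 and 7.07 in both drugs at 6 h. KDM3A, which removes methyl groups from lysine 9 of histone H3, was at 8.61 and 8.77 at 16 h, against 7.56, 7.85, 7.57 and 7.63 on the same arrays at 6 h. Both genes thus had tight 6 h values and 16 h values well above them. BNIP3 and BNIP3L, receptors for mitophagy, were higher in DMSO at 16 h by 0.81 and 0.63. BNIP3 had 10.99 in DMSO and 10.76 in vemurafenib at 16 h, with the 6 h arrays between 10.13 and 10.32. The collagen prolyl hydroxylase subunits P4HA1 (+0.68) and P4HA2 (+0.67), the stress protein NDRG1 (+0.64), the demethylase KDM4B (+0.64) and the sterol regulator INSIG2 (+0.54) differed by less than 2-fold, and each stood above all 6 h arrays.

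The best known secreted targets did not share this size. VEGFA, the vascular growth factor, was at 8.92 in DMSO at 16 h against 8.72 at 6 h, and under vemurafenib it was lower at 16 h by 0.46. ADM, the peptide adrenomedullin, differed by +0.12 in DMSO and -0.55 under vemurafenib. STC2, a secreted glycoprotein that is also a target of ATF4, was lower at 16 h in DMSO by 0.55, and by 1.31 on its other probe set at the floor, and the adenylate kinase AK4 lower by 0.10. The rest of the 20 were MXI1 (+0.38), ANGPTL4 (+0.39), EGLN1 (+0.43), the lysyl hydroxylase PLOD2 (+0.29), ERO1A (+0.20) and FAM162A (+0.19). Below the floor on both arrays, VLDLR, a lipoprotein receptor, had 5.68 at 16 h against 4.33 at 6 h and PPFIA4 had 4.16 against 3.11, while CA12, PPP1R3C, EGLN3, LOX and CXCR4 differed by between -0.19 and +0.56. CA9 and DDIT4 were not analysed, DDIT4 because its probe set was among the displaced rows. With the 6 h order restored DDIT4, an inhibitor of mTORC1, had 10.9 at 16 h against 10.3 at 6 h in DMSO (+0.64), and was lower at 16 h by 0.59 under vemurafenib.

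The HIF factors and their regulators moved less than the targets. HIF1A itself was at 11.74 at 16 h against 11.87 at 6 h, and HIF activity is set mainly by protein stability, which arrays do not measure. Of 7 members at the floor 6 were higher at 16 h, where 42.8% of all genes were, with a median difference of +0.35. They were the alternative partner ARNT2 (+0.73), the oxygen sensor EGLN1 (+0.43), the second alpha subunit EPAS1 (+0.39), the coactivator inhibitor CITED2 (+0.35), ARNT (+0.15) and the asparaginyl hydroxylase HIF1AN (+0.11). VHL, EGLN2, EGLN3 and HIF3A were below the floor.

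**Figure D2:**
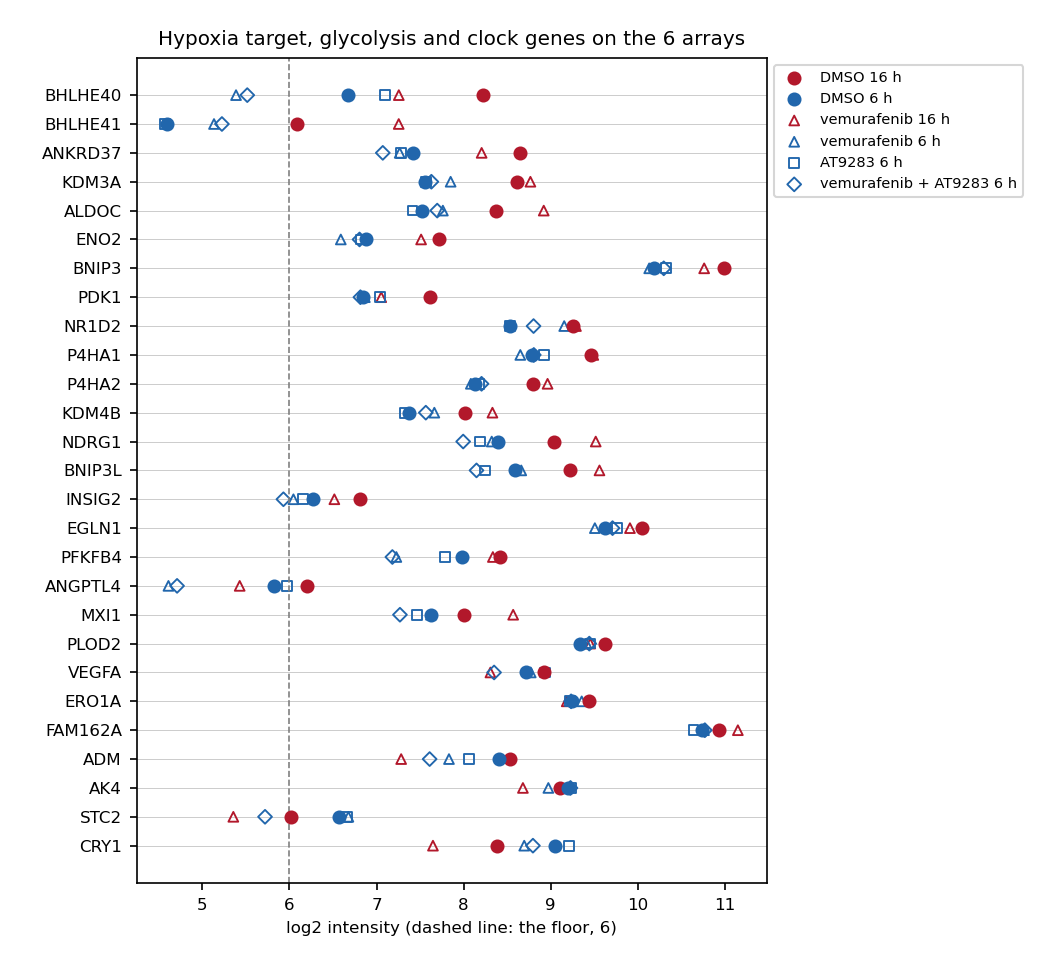
Log2 intensity (x axis) of the hypoxia target genes at the floor with 4 glycolysis genes and 3 clock genes, 1 point per array, ordered by the DMSO 16 h minus DMSO 6 h difference; marks as in the plot of the 25 genes. ANKRD37 and KDM3A have their red 16 h marks at 8.21 to 8.77, to the right of every blue 6 h mark, while VEGFA differs by +0.20 and CRY1, in the last line, by -0.66.

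Glycolysis genes were split between a few members that differed by over 1.5-fold and a brighter majority close to level. All 21 measured were at the floor, 16 were higher at 16 h, where 42.8% of all genes were, and the median difference was +0.11. None passed the 2-fold rule. The aldolase ALDOC had 8.37 in DMSO at 16 h against 7.53 at 6 h (+0.84), and the enolase ENO2 had 7.72 against 6.88 (+0.84). PDK1, a pyruvate dehydrogenase kinase, had 7.61 at 16 h against 6.84 at 6 h (+0.77). Its other probe set at the floor gave +0.31, and under vemurafenib PDK1 was higher at 16 h by 0.19. On the probe sets used, ALDOC, ENO2 and PDK1 were the members above 1.5-fold. The abundant enzymes lay close together at both times, with ALDOA at 12.69 against 12.70, PGK1 at 12.31 against 12.23, LDHA at 12.89 against 12.79 and GAPDH at 13.76 against 13.73. The glucose transporter SLC2A1 was lower at 16 h by 0.43 in DMSO and higher by 0.32 under vemurafenib, while SLC2A3 was higher by 0.47 in DMSO. Of the 21 genes, 11 had both 16 h arrays above every 6 h array, against 9.27% of all genes, and 0 had both below.

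TXNIP, an alpha-arrestin that limits glucose uptake, is a target of the glucose sensor MondoA, and ARRDC3 belongs to the same family. ARRDC3 had 7.41 at 16 h against 6.19 at 6 h in DMSO, and TXNIP had 7.63 against 7.17 (+0.46), with +0.31 and -0.02 on other probe sets at the floor. The AT9283 array at 6 h had TXNIP at 7.53, close to the DMSO 16 h value, so its difference depended on which 6 h array was used. Under vemurafenib TXNIP was at 11.44 at 16 h and 9.88 at 6 h. MLXIP, which encodes MondoA, and its partner MLX were lower by 0.25 and 0.28 in DMSO.

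Clock genes did not move as a block. Of 25 listed 21 were measured and 10 reached the floor, and their median difference was +0.09. At 16 h 5 were higher and 5 lower, where 42.8% of all genes were higher. BHLHE40 and BHLHE41, which repress CLOCK and BMAL1 targets and are themselves responsive to HIF, were the members that rose. BHLHE40 was at 8.23 in DMSO and 7.26 in vemurafenib at 16 h, against 6.67 in DMSO, 5.39 in vemurafenib, 7.10 in AT9283 and 5.52 in both drugs at 6 h, and its other probe set gave +1.02. BHLHE41 was at 6.09 and 7.26 at 16 h, against 4.60, 5.13, 4.57 and 5.23 on the same arrays at 6 h. The 16 h values of BHLHE41 were above all of its 6 h values, though its probe set without shared probes, below the floor, gave a smaller difference of +0.32. NR1D2, the repressor REV-ERB beta, had 9.26 at 16 h against 8.53 at 6 h in DMSO (+0.73).

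The activators CLOCK, at 8.70 at 16 h against 8.71 at 6 h, and BMAL1, at 6.57 against 6.34, differed between the times by -0.01 and +0.23. CRY1, a late repressor of the cycle, was lower at 16 h, with 8.38 in DMSO and 7.65 in vemurafenib, against 8.70 to 9.21 on the 6 h arrays. NPAS2, a relative of CLOCK, differed by +0.20 in DMSO and -1.37 under vemurafenib, and the kinases CSNK1E and CSNK1D were each lower by 0.42 in DMSO. NFIL3, which opposes the PAR bZIP activators, differed by -0.16. Those activators were dim: DBP had 5.83 at 16 h against 4.83 at 6 h and TEF 5.74 against 4.59, both below the floor on both DMSO arrays and therefore not counted. PER2, PER3 and CRY2 were also below the floor, and higher at 16 h by 0.54, 0.58 and 0.68. A pair of times does not give a phase, and PER1 and NR1D1 were not analysed.

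The promoters of the genes at the centre of these groups are shown to set the clock and HIF motifs beside the values. The E-box CACGTG holds on each strand the letters ACGTG, the core of the HIF response element, so that a match to the longer motif is always a match to the shorter. Each run is the 250 bases before the RefSeq start on GRCh38.p14, 5′ to 3′ on the gene's strand. Capitals mark CACGTG, or ACGTG on either strand, in the promoters of BHLHE40, BHLHE41 and ANKRD37, and TTTCGCG, a form of the E2F site, in that of E2F1.
BHLHE40, chr3:4979187-4979436, plus strand: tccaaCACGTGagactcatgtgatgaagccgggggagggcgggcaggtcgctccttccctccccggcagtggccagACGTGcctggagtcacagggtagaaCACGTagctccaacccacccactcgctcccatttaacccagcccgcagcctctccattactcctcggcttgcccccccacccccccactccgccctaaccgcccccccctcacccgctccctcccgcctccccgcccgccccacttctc
BHLHE41, chr12:26125038-26125287, minus strand: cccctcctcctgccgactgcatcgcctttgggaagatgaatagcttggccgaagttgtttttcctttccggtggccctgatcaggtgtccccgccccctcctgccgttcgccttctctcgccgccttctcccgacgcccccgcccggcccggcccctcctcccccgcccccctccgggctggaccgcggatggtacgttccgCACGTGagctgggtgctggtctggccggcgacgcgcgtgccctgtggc
ANKRD37, chr4:185396591-185396840, plus strand: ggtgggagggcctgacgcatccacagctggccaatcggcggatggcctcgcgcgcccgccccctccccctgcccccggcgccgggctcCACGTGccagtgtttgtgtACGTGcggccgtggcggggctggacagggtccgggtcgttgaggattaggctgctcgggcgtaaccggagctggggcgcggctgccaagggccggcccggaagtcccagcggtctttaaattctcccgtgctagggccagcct
E2F1, chr20:33686386-33686635, minus strand: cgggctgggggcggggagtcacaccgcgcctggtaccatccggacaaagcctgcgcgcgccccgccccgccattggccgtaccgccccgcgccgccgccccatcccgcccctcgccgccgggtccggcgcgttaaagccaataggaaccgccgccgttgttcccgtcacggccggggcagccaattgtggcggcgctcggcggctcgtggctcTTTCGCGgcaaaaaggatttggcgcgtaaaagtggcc

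BHLHE40 held a CACGTG starting 245 bases before its start and further ACGTG cores on either strand at 174 and 149 bases. In BHLHE41 the E-box lay 48 bases before the start. ANKRD37 had it at 162 bases with a further ACGTG at 143, and E2F1 had TTTCGCG at 37 bases. CCNG2 also held CACGTG, 30 bases before its start, whereas KDM3A, CCDC102B, NRN1 and TMEM45A held neither motif in their windows. Both strands were searched for each motif, and a gene with several RefSeq starts was counted when any window had a match. Among genes at the floor, 11.9% of 7598 promoters held CACGTG, against 4 of 16 genes that rose (25%), 5 of 17 hypoxia targets (29.4%) and 3 of 9 clock genes (33.3%). The 4 genes that rose with CACGTG were BHLHE40, BHLHE41, ANKRD37 and CCNG2, some of which are also counted in the hypoxia and clock shares. The shorter ACGTG was in 30.1% of the 7598 and in 5 of 16 genes that rose (31.25%). It was in 13 of 17 hypoxia targets (76.5%) and in 13 of 20 glycolysis genes (65%). Those lists were drawn up from known HIF targets and glycolytic genes, so the share describes the lists. Among all genes higher by 1.5-fold, 43 of 113 held ACGTG (38.1%), and among those lower by 1.5-fold, 23 of 84 (27.4%). TTTCGCG was in 6 of 31 E2F and replication genes (19.4%), against 2.61% of the 7598. A match in these letters is not evidence of binding.

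Genes linked to FOXO factors and to leaving the cell cycle were mostly higher at 16 h. Of 16 at the floor 14 were higher, against 42.8% of all genes, and CCNG2 and PDK4 rose, as did 0.188% of all genes. The median difference of +0.30 was +0.11 with the mean of all probe sets and +0.47 against the AT9283 array at 6 h. PDK4 had 6.16 at 16 h against 4.96 at 6 h in DMSO, but 6.44 in vemurafenib at 6 h. ERBB3, a receptor of the EGFR family that FOXO factors can induce, had 7.85 at 16 h against 6.92 at 6 h (+0.94). The repressor BCL6 differed by +0.78 and the Krüppel-like factor KLF9 by +0.67, while KLHL24 was lower by 0.44. A separate list of G1 cyclins and CDK inhibitors had a median of +0.09 over 14 genes at the floor. Of the 14, 9 were higher and 5 lower, where 42.8% of all genes were higher. CDKN1B, the inhibitor p27, was at 8.87 against 8.84, and CDKN1C, the inhibitor p57, had 8.24 against 7.64 (+0.60). Other CDKN1C probe sets at the floor gave +0.42, +0.40 and +0.12. CCND1, the cyclin that ERK signalling sustains, was lower at 16 h, at 9.55 against 10.14 (-0.58).

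In DMSO, DNA replication genes were lower at 16 h by small amounts, while mitosis genes were split. Of 36 E2F and replication genes at the floor 32 were lower, where 57.2% of all genes were, with a median difference of -0.19, and E2F1 fell. The phosphatase CDC25A (-0.56), the chromatin assembly subunit CHAF1A (-0.49), the initiation factor MCM10 (-0.45) and E2F3 (-0.40) followed, while the abundant PCNA had 11.40 at 16 h against 11.62 at 6 h. Both 16 h arrays lay below every 6 h array for 20 of the 36, against 23.6% of all genes, but the 16 h minus 6 h median under vemurafenib was -1.65, far beyond that in DMSO. A second E2F1 probe set, left out with the displaced rows, gave -0.47 with the order restored. Of 31 mitosis genes 16 were lower and 15 higher in DMSO, with a median of -0.03. Both 16 h arrays lay below every 6 h array for 16 of the 31, against 23.6% of all genes. Under vemurafenib all 31 were lower at 16 h, with a median of -0.45. In DMSO MKI67 was lower by 0.17 and AURKA by 0.20, and CDC25C was higher by 0.59. Another CDC25C probe set at the floor gave a smaller +0.21, and the vemurafenib pair differed by -0.005 for CDC25C. In bulk RNA, fewer cells of a type or stage and less RNA per cell cannot be told apart.

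Ribosome biogenesis genes were lower at 16 h almost throughout. All 35 measured were at the floor, 33 were lower in DMSO, and the median difference was -0.30, where 57.2% of all genes were lower. None fell by the 2-fold rule and 1, WDR43, was lower by 1.5-fold. WDR43, a subunit of the small-subunit processome, had 8.78 in DMSO and 7.65 in vemurafenib at 16 h, against 8.87 to 9.54 on the 6 h arrays. The assembly factors NOP16, RRS1 and PNO1 were each lower by 0.51 in DMSO, WDR74 by 0.48, the nucleolar protein LYAR by 0.46, and UBTF, the RNA polymerase I factor, by 0.45. NPM1 and NHP2, among the brightest, differed by -0.01 and -0.05, and FBL (+0.07) and NCL (+0.13) were the members that were higher. Both 16 h arrays lay below every 6 h array for 18 of the 35, against 23.6% of all genes.

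Nucleotide synthesis followed the same direction. Of 16 genes 13 were lower at 16 h, where 57.2% of all genes were, with a median of -0.18. CAD, which starts pyrimidine synthesis, had 7.33 at 16 h against 8.01 at 6 h in DMSO (-0.68), and the CTP synthase CTPS1 had 9.21 against 9.62 (-0.41). MYC, which activates both ribosome and nucleotide genes, was at 7.24 at 16 h against 7.44 at 6 h (-0.20). Its partner MAX was lower by 0.33 and MGA by 0.32, while the antagonists MXD3 (+0.50), MNT (+0.40) and MXI1 (+0.38) were higher. MYCN, MYCL and MXD1 were below the floor, and MXD4 was not analysed.

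**Figure D3:**
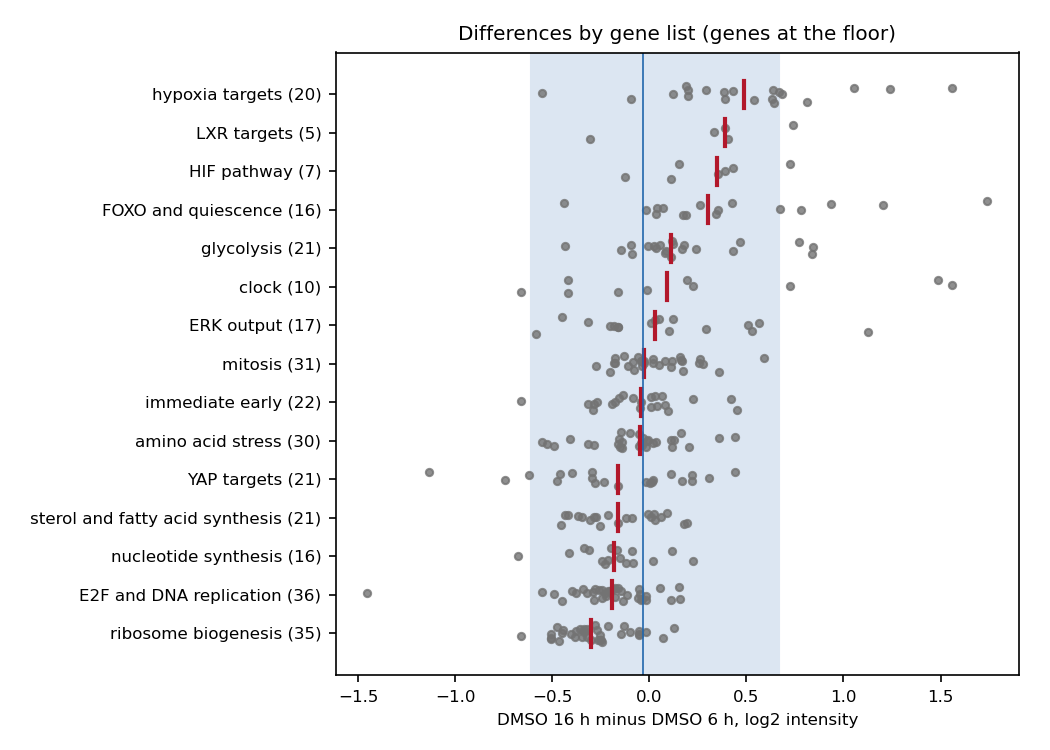
DMSO 16 h minus DMSO 6 h difference in log2 intensity (x axis) for each gene at the floor in 15 gene lists, with the number of genes in brackets; red bars are list medians, the blue line is the median of all 9055 genes and the shaded band holds their 1st to 99th percentile, -0.61 to +0.67. Hypoxia targets (median +0.49) lie to the right, ribosome biogenesis (-0.30) and E2F genes (-0.19) to the left, and most members of the other lists inside the band.

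Genes tied to cell contact gave no common shift in DMSO. Of 21 YAP targets at the floor 12 were lower and 9 higher at 16 h, with a median of -0.16. Of all genes 57.2% were lower. Under vemurafenib 20 of the 21 were lower at 16 h, with a median of -0.53. In DMSO ANKRD1 fell, and FOXF2 (-0.74), the growth factor TGFB2 (-0.62) and the matricellular CCN2 (-0.48) were lower. CCN1 (+0.17), the ectonucleotidase NT5E (+0.30) and FJX1 (+0.44) were higher. ANKRD1 had 7.21 in DMSO at 16 h, against 8.34 in DMSO and 8.19 in AT9283 at 6 h, and it was at 5.26 or below on all 3 arrays with vemurafenib. The remaining YAP targets differed by between -0.46 (ASAP1) and +0.22 (AMOTL1), GADD45B, CRIM1, F3, MYOF, AJUBA, AXL, RBMS3, PTPN14, AMOTL2, LATS2, DOCK5 and IGFBP3 among them. Of 13 Hippo pathway genes 8 were lower at 16 h in DMSO, where 57.2% of all genes were. For 8 of the 13 both 16 h arrays lay below every 6 h array, against 23.6% of all genes. For 1 both lay above. TEAD4, a DNA-binding partner of YAP, had 8.01 against 8.60 in DMSO (-0.59). NF2, the upstream activator merlin, was lower by 0.52, with other probe sets at the floor between -0.53 and +0.01, and the competing cofactor VGLL4 higher by 0.43. YAP1 itself differed by +0.11. Of 11 cadherin and junction genes CDH11 rose, while N-cadherin, CDH2, was at 9.19 against 9.29. The Notch target HEY1 had 6.69 at 16 h against 5.93 at 6 h (+0.76), and HES1 was lower by 0.27.

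Amino acid shortage genes were not higher at 16 h. None of 30 members at the floor reached 1.5-fold in either direction on the probe set used. In DMSO 21 of the 30 were lower, where 57.2% of all genes were, with a median of -0.05. ATF4, which drives these genes, was at 11.21 at 16 h against 11.22 at 6 h. The subunits of the leucine transporter, SLC7A5 (-0.53) and SLC3A2 (-0.49), and the pseudokinase TRIB3 (-0.41) were lower, and ASNS, the asparagine synthetase, was at 8.82 against 8.98. PSPH, of serine synthesis, was higher by 0.44, and the cystine transporter SLC7A11 by 0.36.

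Sterol and fatty acid synthesis genes were lower at 16 h in 14 of 21 with a median of -0.16, a share near the 57.2% of all genes, and none reached 1.5-fold. The squalene epoxidase SQLE differed by -0.46, DHCR7 by -0.43 and IDI1 by -0.42. Of 5 targets of the sterol receptor LXR 4 were higher, where 42.8% of all genes were. SMPDL3A differed by +0.74 and ABCA1, the cholesterol exporter, by -0.31.

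Lists of other programmes had medians close to that of all genes. Immediate early genes had a median of -0.05 over 22 members, with JUN at 9.18 at 16 h against 9.84 at 6 h (-0.66) and FOSL2 higher by 0.45. ERK output genes had a median of +0.03 over 17, in which SPRY1 rose and ETV1, ETV4 and ETV5 were higher by 0.57, 0.53 and 0.51. Further probe sets at the floor gave -0.13 for ETV4 and +0.27 and -0.23 for ETV5, so that their direction depended on the probe set. The helix-loop-helix inhibitor ID2 had 6.86 at 16 h against 6.01 at 6 h in DMSO (+0.86), while the probe sets of the activin antagonist FST disagreed, at -0.66, -1.02 and +0.56. Medians of the p53 (+0.04), ER chaperone (-0.05), heat shock (+0.03), NRF2 (-0.04), interferon (-0.04), inflammatory (-0.01), lysosome and autophagy (+0.01), matrix and integrin (-0.03), histone (+0.05) and nuclear oxidative phosphorylation (+0.05) lists lay within 0.1 of the median of all genes, and none of their members reached 1.5-fold. Housekeeping genes had a median of -0.02. ND6 differed from the other mitochondrially encoded genes, of which COX1 was lower by 0.40, ND2 by 0.29, COX2 by 0.20 and ATP6 by 0.13, and ND4 and COX3 were higher by 0.16 and 0.20. The AT9283 array at 6 h had ND6 lower than DMSO at 6 h by 0.44.

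The vemurafenib arrays at 16 h and 6 h give a separate pair of times, with no array in common with the DMSO pair. The labels do not say how the arrays of each time were handled. Any difference in handling between the times could therefore be shared by both pairs. Across 9055 genes the 16 h minus 6 h differences of both pairs correlated with r = 0.539 (Pearson) and rho = 0.544 (Spearman), given as a description since genes are not replicates. Of the 17 genes that rose in DMSO 15 were also higher at 16 h under vemurafenib, where 42.5% of all genes were. Of the 8 that fell 7 were lower. Among the 139 and 102 genes past 1.5-fold, 125 and 97 kept their sign. The share of all genes that kept their sign was not counted, so these counts have no direct background. The hypoxia targets had a median difference of +0.65 under vemurafenib, where 42.5% of all genes were higher at 16 h and 15 of 20 targets were. Ribosome biogenesis genes had a median of -0.90 and E2F and replication genes one of -1.65 under vemurafenib, against -0.30 and -0.19 in DMSO. In the vemurafenib pair, the time in culture and the length of the treatment cannot be told apart.

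**Figure D4:**
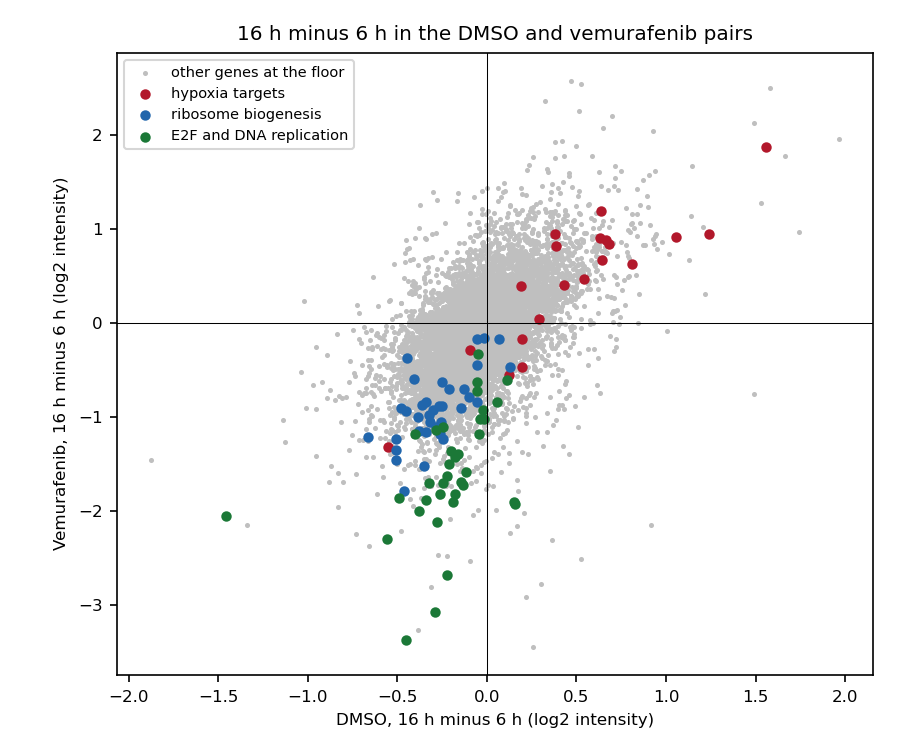
Difference between 16 h and 6 h in log2 intensity in DMSO (x axis) and under vemurafenib (y axis), 1 point per gene at the floor, with 3 gene lists in colour. Hypoxia targets (red, medians +0.49 and +0.65) lie mostly in the upper right, ribosome biogenesis genes (blue) in the lower left, and E2F and replication genes (green) far lower on the vemurafenib axis (median -1.65) than left on the DMSO axis (-0.19).

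A time effect was also fitted with limma to both pairs together, 4 arrays with the treatment as a block, in which the only spread is the disagreement of the DMSO and vemurafenib pairs on 1 residual degree of freedom. No gene of 9651 passed an adjusted p of 0.05 after Benjamini-Hochberg adjustment (0%), the smallest adjusted p was 0.335, and 1419 genes had an unadjusted p under 0.05. CCDC102B had the smallest p, with a time effect of 1.96 ± 0.13 (SE), followed by BHLHE40 with 1.71 ± 0.15 and ND6 with -1.66 ± 0.17. Among the 10 genes with the smallest p in either direction were also ATOSA (1.07), ERBB3 (0.93) and ENO2 (0.88) on the higher side, and RRP1 (-1.18), NUP98 (-0.93) and NSD1 (-0.93) on the lower. ANKRD37 had an effect of 1.09 ± 0.15 and KDM3A of 0.99 ± 0.14, E2F1 one of -1.75 ± 0.21, and all of these genes had the same adjusted p of 0.335. Since each condition was a single array and the 6 h and 16 h values came in different row orders, culture time and the handling of each time point's arrays cannot be told apart.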

How the data were processed

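Labelled cRNA of 6 A375 samples was hybridised to Affymetrix arrays, 1 per condition, per the labels' protocols. The authors deposited linear intensity values per probe set, and RMA is named in the submitters' processing notes, with no version and no statement of whether all arrays were normalized together in the sources used here. Intensities were converted to log2 from the deposited values. Of 54675 probe sets 41097 had 1 gene symbol in the platform annotation, 1801 several and 11777 none, and only those with 1 were named. Among all of these, 62 control probe sets were left out, as were 1118 whose 6 h values stood on other rows: over these the DMSO arrays had an r of 0.455 as deposited and 0.984 with the 6 h values placed in the other sort order, against 0.992 elsewhere. This removed 99 genes. Each gene used its probe set with the highest mean over 6 arrays.

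Differences were 16 h minus 6 h. A gene passed the rule of size with 1 on log2 and at least 6 on the brighter array. Limma 3.58.1 in R 4.3.3 fitted time with treatment as a block, on genes with any of these 4 arrays at the floor. Promoters and symbols came from RefSeq tables (GRCh38.p14). The 36 gene lists (734 entries, 667 measured) and the genes described were chosen with earlier results of these data known. Named genes are the 20 highest and 20 lowest past the rule, members of each list past it or among its largest differences, all measured clock, HIF, hypoxia, MYC and YAP genes at the floor, and the 10 smallest limma p per direction, not all of which are printed. The steps were tested on simulated data. Alternatives covered the floor, the scaling, an added constant, the choice of probe set, the displaced rows and the 6 h array. The number of arrays limits the precision.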

Additional observations from a re-analysis of the deposited data

Results flagged for a closer look

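The time difference ran one way in DMSO and the other way under vemurafenib for 3 of the 25 genes past the rule of size, and the difference between the treatments was not tested, with 1 array per condition. SH2D1B differed by +1.49 in DMSO and -0.75 under vemurafenib, where both arrays were below the floor. CDH11 differed by +1.01 in DMSO and -0.08 under vemurafenib, also below the floor on both arrays. UBE2QL1 differed by -1.02 in DMSO and 0.23 under vemurafenib, again on arrays below the floor.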

How the results depend on the processing

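No paired analysis was possible because each condition had 1 array, so no replicate numbers pair arrays across the times; the limma fit blocks on treatment instead. Against 17 genes that rose and 8 that fell, a floor of 5 gave 40 higher, a floor of 7 gave 7 higher and 5 lower, and no floor gave 99 and 21. Adding 32 intensity units gave 7 and 3, the mean of all probe sets 6 and 4, and the displaced rows as deposited 34 and 45. With the AT9283 array at 6 h in place of DMSO 14 genes were lower, and at 1.5-fold 139 were higher and 102 lower. Apart from the floor settings, CCNG2, NRN1, TMEM45A, BHLHE40, PRR16, E2F1 and ND6 stayed past 2-fold in every setting that gave them a value. At a floor of 7, NRN1 and TMEM45A dropped out, with 6.59 and 6.68 in DMSO at 16 h. NRN1, TMEM45A, E2F1 and ND6 had 1 probe set left, so the choice of probe set could not move them. The E2F1 value with the displaced rows as deposited, -6.05, rested on misplaced 6 h values. CDH11 turned to -0.020 on its unshared probe set with the higher mean, while the other gave +1.08. FST turned to 0.56 on its unshared probe set with the higher mean, while the other gave -1.02. Against the AT9283 array FST turned to 0.03. Of 360 list medians under alternatives 343 moved by less than the SD of 0.125 between the AT9283 and DMSO arrays at 6 h. With the mean of all probe sets the median was 0.21 for the HIF pathway, 0.25 for glucose sensing, 0.11 for FOXO, 0.15 for Notch and -0.030 for other lineages. On unshared probe sets it was -0.16 for the clock, 0.48 for glucose sensing, -0.017 for YAP targets, 0.15 for Notch, 0.39 for MYC, -0.35 for pigment cells and 0.52 for other lineages. Against the AT9283 array it was -0.10 for glucose sensing, 0.47 for FOXO, 0.23 for MYC, 0.027 for mitochondrial genes and 0.0017 for pigment cells. The cause was not tested. An alternative chosen after seeing the data left vemurafenib arrays out of the range: the DMSO 16 h array stood above both the DMSO and AT9283 arrays at 6 h for 3033 genes and below for 4548, against 839 and 2133. Limma called 0 genes under every alternative, with 1105 to 2177 genes at an unadjusted p under 0.05. Signal over background limits the dim genes: 12 of 17 risers were below the floor at 6 h.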
